A study of Homo sapiens with 6 samples.

Results

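The 4 genes UHRF1, PCNA, MCM10 and CDC25A, which act at the G1/S boundary and in DNA replication, were read from the rows of the deposited count table that carry those names. They are 4 of the 2778 features of the table, and each name matched 1 row. The RNA came from A375, an established human melanoma cell line, as 3 libraries of wildtype cells (WT) and 3 libraries of cells with the genotype CYGB-overexpression (CYGB-OE). CYGB encodes cytoglobin, a haem-binding globin. All 6 libraries were from untreated cells kept in the same serum-containing medium, and the series compares the transcripts of the 2 groups. The labels do not say how CYGB was introduced, whether the cells are 1 clone or a pool, or whether an empty vector was used. They also name no separate cultures, and p-values then reflect only the spread among these 6 libraries, which may be technical.

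A cell enters S phase when cyclin-dependent kinases release E2F transcription factors from the retinoblastoma protein, and E2F then switches on the genes that copy DNA. CDC25A is the phosphatase that removes inhibitory phosphates from these kinases, and its protein is destroyed when DNA is damaged. MCM10 helps to start the replicative helicase at licensed origins, and PCNA is the ring-shaped clamp that holds DNA polymerases on the template. UHRF1 recognises DNA methylated on a single strand behind the fork and brings in the methyltransferase DNMT1, so that methylation is copied along with the sequence.

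The 4 genes lie on different chromosomes of GRCh38. UHRF1 (ENSG00000276043) runs from 4903080 to 4962154 on chromosome 19, plus strand, and MCM10 (ENSG00000065328) from 13161554 to 13211104 on chromosome 10, plus strand. PCNA (ENSG00000132646) runs from 5114953 to 5126626 on chromosome 20, minus strand, and CDC25A (ENSG00000164045) from 48157146 to 48188402 on chromosome 3, minus strand. Genes of this group are known as targets of E2F, so the sequences before their start sites are shown. Each window holds 250 bases before and 30 bases after a RefSeq start (GRCh38.p14), 5′ to 3′ on the strand of the gene, and capitals mark E2F-type words and CCAAT boxes on either strand.
UHRF1, chr19:4909251-4909530, plus strand: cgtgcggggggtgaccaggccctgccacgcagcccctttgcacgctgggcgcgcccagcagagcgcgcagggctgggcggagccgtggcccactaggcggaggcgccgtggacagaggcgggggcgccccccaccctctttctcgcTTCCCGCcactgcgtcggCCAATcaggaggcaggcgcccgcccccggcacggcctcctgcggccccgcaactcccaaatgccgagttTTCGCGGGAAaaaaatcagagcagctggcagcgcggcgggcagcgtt
PCNA, chr20:5126593-5126872, minus strand: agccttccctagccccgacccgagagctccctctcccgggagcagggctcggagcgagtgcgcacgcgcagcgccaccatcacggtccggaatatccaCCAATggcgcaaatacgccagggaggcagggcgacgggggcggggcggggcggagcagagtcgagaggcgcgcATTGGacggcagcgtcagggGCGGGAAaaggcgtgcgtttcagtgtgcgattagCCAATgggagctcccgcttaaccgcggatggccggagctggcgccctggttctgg
MCM10, chr10:13161308-13161587, plus strand: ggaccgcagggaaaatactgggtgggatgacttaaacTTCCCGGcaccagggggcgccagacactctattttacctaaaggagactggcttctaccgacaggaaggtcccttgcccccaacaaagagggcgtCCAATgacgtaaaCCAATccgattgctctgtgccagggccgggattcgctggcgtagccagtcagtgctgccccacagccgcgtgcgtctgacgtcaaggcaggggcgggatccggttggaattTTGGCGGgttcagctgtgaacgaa
CDC25A, chr3:48188388-48188667, minus strand: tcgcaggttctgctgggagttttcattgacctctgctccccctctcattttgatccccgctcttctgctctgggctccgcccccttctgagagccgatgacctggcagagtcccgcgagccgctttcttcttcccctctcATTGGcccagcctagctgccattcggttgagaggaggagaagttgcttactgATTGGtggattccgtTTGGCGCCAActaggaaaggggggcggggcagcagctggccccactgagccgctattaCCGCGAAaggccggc

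The E2F-type search used the 8 words of 7 letters that TTNNCGN gives when each N is C or G, on both strands. In the UHRF1 window the words stood at positions -104, -17 and -14 from the start, the last 2 overlapping, and a CCAAT box stood at position -86. In the CDC25A window 2 overlapping words, the opposite-strand copies of one site, began at -43 and -40, and another word began at position 16. The MCM10 window held words at positions -213 and 7, and the PCNA window 1 word at -59. CCAAT boxes, the sequence bound by the factor NF-Y, numbered 3 in the PCNA window and 2 each in those of MCM10 and CDC25A. RefSeq lists 2 further starts for UHRF1, whose windows held 1 word each, and 1 further start for PCNA, whose window held 0, and the window with the most matches was printed.

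An E2F-type word is not rare in promoters. It occurred in 22.4% of all 35116 windows of the same length. For genes called higher in CYGB-OE it was in 27.5% of 502 windows of 343 genes. For genes called lower it was in 23.1% of 1492 windows of 997 genes. Many of the 697 features called higher and 1762 called lower had no matched window. A gene with several starts counts more than once. An E2F-type word together with a CCAAT box occurred in 7.56%, 11.6% and 6.77% of the same sets. Of the 7 windows of the 4 genes 5 held both, the 4 printed ones, picked for their matches, among them. The median GC content was 58.2% over all windows and 61.4% and 63.6% in the 2 called sets. The overlap of these words with GC-rich sequence was not separated. The MYC E-box CACGTG was in none of the members' windows and in 6.94% of all windows. A match is a run of letters and does not show that a factor binds there.

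The table that holds the counts is a selection. With the scaling used here, the range from -0.995 to 0.995 in the log2 ratio of group means was empty. The scaling set the middle of this empty band at 0, which is an assumption. Before that step the band ran from -0.65 to 1.34. On this assumption every listed feature differs about 2-fold or more between these same libraries. A call below is therefore not independent evidence of a difference. Column totals ran from 1533260 to 2801576 counts and are sums over the listed features, not library depths. Counts of CYGB were 33 to 47 in WT and 20740 to 26267 in CYGB-OE, in the direction of the labels. CYGB-OE replicate 1 stood apart, with a median difference per feature of 0.462 and 0.475 log2 units from the other 2 replicates and 0.177 to 0.215 for the other pairs within a group. Of the 13 listed melanocyte genes 5 were in the table, at a summed 6825 to 7466 normalized counts in WT and 2832 to 3317 in CYGB-OE, and DCT had 2, 13 and 15 counts in WT, 0 in every CYGB-OE library and no test. Fibroblast markers (2 of 9 in the table) summed to 1.1 to 3.95 in WT and 38.4 to 193 in CYGB-OE, and keratinocyte markers (2 of 7) to 448 to 504 and 211 to 359. The 2 keratinocyte genes went opposite ways, KRT14 from 16.6 ± 3.52 to 62.0 ± 8.90 and DSC3 from 462 ± 28.9 to 212 ± 71.6 (SD, n = 3 each). Endothelial markers (2 of 6) summed to 166 to 191 and 16.8 to 34.1, and the 1 of 8 immune markers in the table, LYZ, ran from 43.6 to 55.3 and from 223 to 341. The part of these marker levels in the results was not tested.

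All 4 genes were higher in CYGB-OE, between 2.04-fold for CDC25A and 2.59-fold for UHRF1, and in each the lowest CYGB-OE library lay above the highest WT library. In the table as a whole 28.3% of the 2465 features tested were called higher and 71.5% lower, and the 2 groups did not overlap, with CYGB-OE higher, in 28.3% of features and, with CYGB-OE lower, in 70.1%. With TMM over the whole table the shares called were 30% higher and 18.7% lower. A higher share of cells in S phase and more RNA per cell cannot be told apart in bulk RNA.

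**Figure D1:**
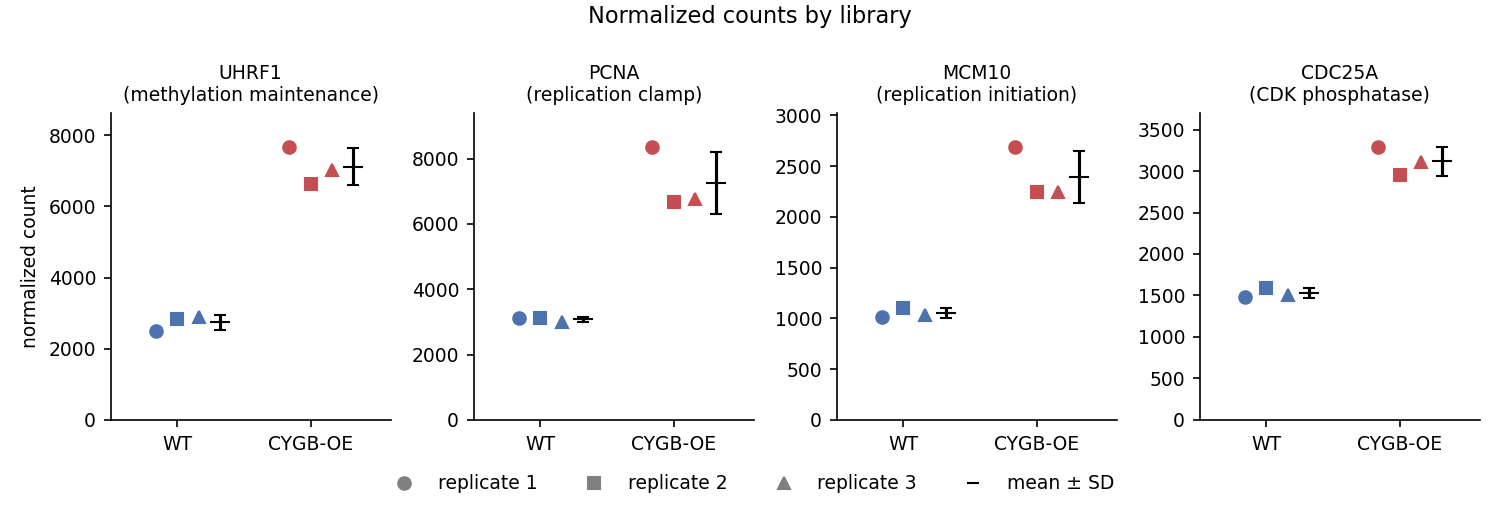
Normalized counts (y axis, from 0) of UHRF1, PCNA, MCM10 and CDC25A in the 3 WT and 3 CYGB-OE libraries, with the marker shape giving the replicate and the bar the mean and SD of a group. In each gene all CYGB-OE libraries lie above all WT libraries, and CYGB-OE replicate 1 is the highest.

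PCNA, the sliding clamp, was counted 2838, 3931 and 2824 times in replicates 1 to 3 of WT and 7828, 5970 and 7426 times in those of CYGB-OE. After scaling these were 3121, 3107 and 3001 normalized counts in WT and 8350, 6667 and 6749 in CYGB-OE. The WT libraries lay close together, and CYGB-OE replicate 1 lay above the other 2. The mean rose from 3076 ± 65.4 to 7255 ± 949 (SD, n = 3 each), a log2 fold change of 1.24 (SE 0.11; edgeR quasi-likelihood test, adjusted p = 1.71e-05). Counts of PCNA carry a counting doubt. GENCODE 29 names 3 PCNA pseudogenes, PCNAP1, PCNAP3 and PCNAP4, none of them in the table, and RefSeq places the antisense RNA PCNA-AS1 on the opposite strand at 5119586 to 5119969, inside PCNA. The strand setting, not given in the sources used here, decides whether such reads are split, so reads of the 2 strands cannot be told apart.

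MCM10, the initiation factor, was the least abundant of the 4. Its counts were 926, 1400 and 972 in WT and 2519, 2011 and 2472 in CYGB-OE, or 1018, 1106 and 1033 normalized counts against 2687, 2246 and 2247. CYGB-OE replicates 2 and 3 differed by 1 normalized count and replicate 1 was 1.196 times their mean. The group means were 1053 ± 47.2 and 2393 ± 255 (SD, n = 3 each), a log2 fold change of 1.18 with an SE of 0.11 (edgeR adjusted p = 2.14e-05).

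CDC25A, the phosphatase that acts on the G1/S kinases, had the smallest change. Its counts were 1351, 2018 and 1415 in WT and 3082, 2642 and 3418 in CYGB-OE, or 1486, 1595 and 1504 against 3288, 2950 and 3106 normalized counts. Both groups were tight, and the lowest CYGB-OE library was 1.85 times the highest WT library. The mean rose from 1528 ± 58.5 to 3115 ± 169 (SD, n = 3 each), a log2 fold change of 1.03 with an SE of 0.10 (edgeR adjusted p = 2.03e-05). CDC25A sits at the edge of the table: of 785 features with a positive log2 ratio of group means, 35 had a smaller one. A gene with a slightly smaller change would not have been listed. The corresponding numbers were 210 for MCM10, 242 for PCNA and 333 for UHRF1.

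UHRF1, the methylation reader, had 2279, 3589 and 2716 counts in WT and 7183, 5945 and 7726 in CYGB-OE. Its normalized counts were 2506, 2837 and 2887 in WT and 7662, 6639 and 7021 in CYGB-OE. WT replicate 1 was the lowest of its group, and the spread was alike in both groups, with a coefficient of variation of 7.53% in WT and 7.28% in CYGB-OE. The log2 fold change was 1.37 (SE 0.10; edgeR adjusted p = 7.61e-06), the largest of the 4. Even so, 51.9% of the features called higher had a larger fold, and for CDC25A that share was 94.5%. The median log2 fold change was 1.21 over the 4 genes, 1.40 over all features called higher and -1.30 over all features tested.

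**Figure D2:**
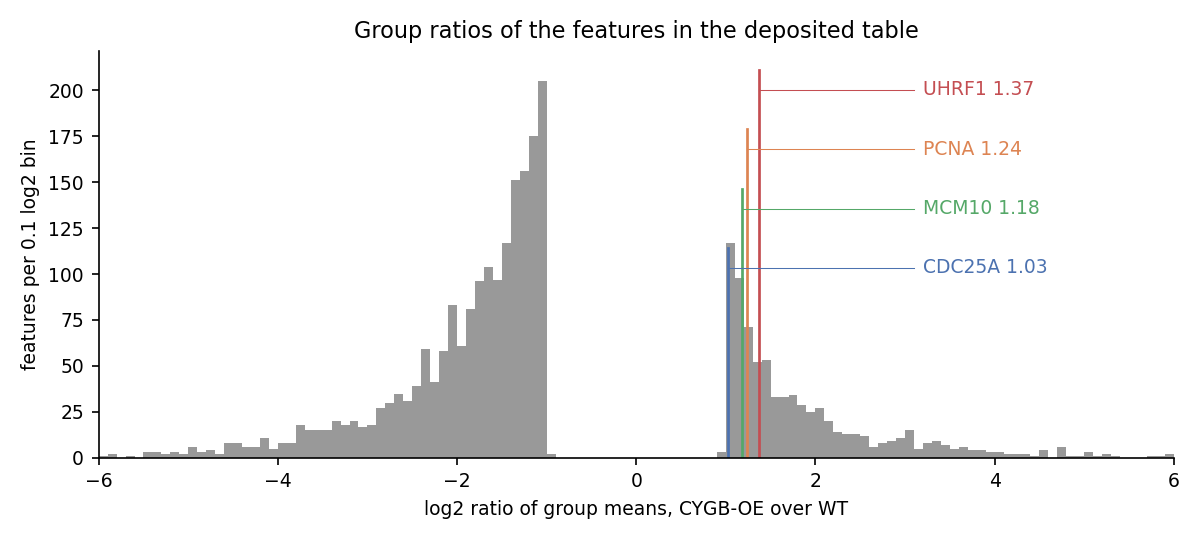
Histogram of the log2 ratio of group means, CYGB-OE over WT, for the features of the deposited table with counts in both groups (y axis, features per 0.1 log2 units; the few beyond the axis limits are not drawn). No feature lies between -0.995 and 0.995, and vertical lines mark CDC25A at 1.03, MCM10 at 1.18, PCNA at 1.24 and UHRF1 at 1.37 on the inner part of the upper side.

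Counting error was well below the spread between libraries in CYGB-OE. In WT this held for UHRF1 (1.89% against a coefficient of variation of 7.53%). For PCNA, MCM10 and CDC25A in WT it was a large part of the spread. For PCNA in WT the coefficient of variation was 2.12%, close to the 1.78% that counting alone gives, whereas in CYGB-OE it was 13.1% against 1.19%. MCM10 went from 4.49% in WT to 10.6% in CYGB-OE, with counting errors of 3.06% and 2.08%. CDC25A went from 3.83% to 5.42%, with counting errors of 2.54% and 1.82%. CYGB-OE replicate 1 was 1.24 times the mean of the other 2 for PCNA, as against 1.196 times for MCM10, 1.12 times for UHRF1 and 1.09 times for CDC25A. Replicate 1 was also the highest CYGB-OE library in 52.8% of the features called higher. Without it the log2 fold changes were 1.32 for UHRF1, 1.12 for PCNA, 1.09 for MCM10 and 0.99 for CDC25A, and all 4 were still called.

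Levels of the 4 genes can be set side by side per kilobase of annotated exon (exon lengths 5145 bases for UHRF1, 1471 for PCNA, 5454 for MCM10 and 4117 for CDC25A). In WT the normalized count per kilobase was 2091 ± 44.4 for PCNA, 533 ± 40.2 for UHRF1, 371 ± 14.2 for CDC25A and 193 ± 8.66 for MCM10 (SD, n = 3). In CYGB-OE it was 4932 ± 645 for PCNA, 1381 ± 100.5 for UHRF1, 757 ± 41.0 for CDC25A and 439 ± 46.7 for MCM10. The order was the same in all 6 libraries, with no overlap between neighbours. PCNA is short and the other 3 are long, so the order by counts alone put UHRF1 beside PCNA.

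A ratio of 2 genes within a library does not depend on the scaling between libraries. The PCNA to MCM10 ratio was 3.06, 2.81 and 2.91 in WT and between 2.97 and 3.11 in CYGB-OE. The groups overlapped, and the mean log2 ratio differed by 0.05 (exact permutation test, two-sided, p = 0.3, adjusted over 6 pairs 0.3). It was 0.083 without WT replicate 1, 0.020 without WT replicate 2 and 0.030 without CYGB-OE replicate 1. The UHRF1 to CDC25A ratio was 1.69, 1.78 and 1.92 in WT and 2.33, 2.25 and 2.26 in CYGB-OE. Here the groups did not overlap and the mean ratio was 1.27 times as large in CYGB-OE. The MCM10 to CDC25A ratio was 0.69 in each WT library and 0.82, 0.76 and 0.72 in CYGB-OE.

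Over all 6 pairs, 4 did not overlap between the groups, UHRF1 to MCM10, UHRF1 to CDC25A, PCNA to CDC25A and MCM10 to CDC25A, with log2 differences of 0.19, 0.35, 0.20 and 0.15. Each had an exact permutation p = 0.1, the smallest that 3 libraries against 3 can give, and an adjusted p of 0.15. The UHRF1 to PCNA ratio overlapped, with a log2 difference of 0.14 (exact permutation p = 0.2, adjusted 0.24), and it was 0.069 without WT replicate 1. No pair can pass the threshold in this design. The pairs share genes, with CDC25A in all the non-overlapping ones but UHRF1 to MCM10, so they are not separate observations. How often pairs of other features overlap was not counted. As a share of the 4 genes' counts, CDC25A made up 17.9% to 18.4% in WT and 14.95% to 16.2% in CYGB-OE, and MCM10 12.3% to 12.8% and 11.7% to 12.2%.

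**Figure D3:**
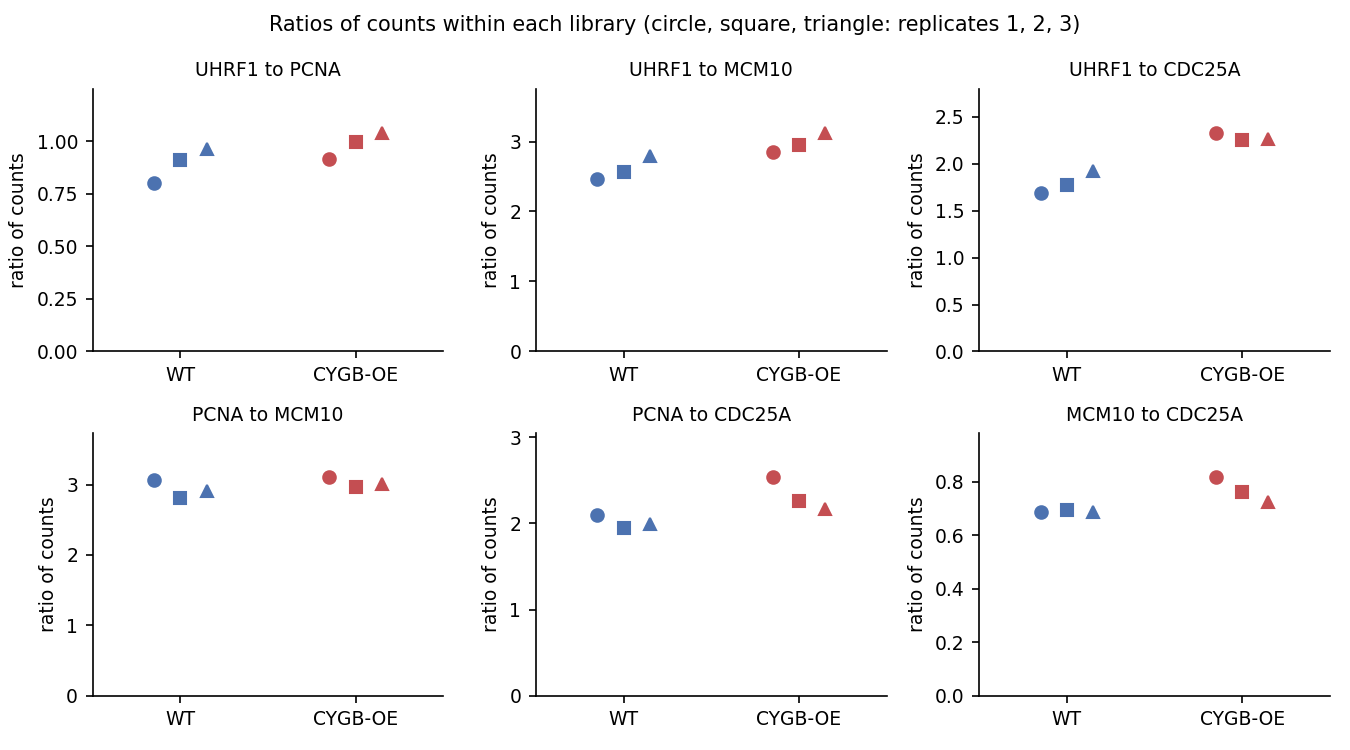
Ratio of the counts of 2 genes within each library (y axis, from 0) for the 6 pairs of the 4 genes, with the marker shape giving the replicate. The UHRF1 to CDC25A ratio is 1.69 to 1.92 in WT and 2.25 to 2.33 in CYGB-OE, whereas the PCNA to MCM10 ratio overlaps between the groups.

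Other genes of replication and G1/S were looked up in 8 lists by role with 147 genes, the 4 genes included. Of these 14 were in the table, or 9.52%. Over all 58780 annotated genes the share was 4.44%. Those include many pseudogenes and non-coding genes, so the shares are not directly comparable. All 14 were tested, 11 were higher and 3 lower (edgeR adjusted p below 0.05), against 28.3% higher and 71.5% lower over all features tested. The median log2 fold change was 1.06, against -1.30 over all features tested. The 4 genes are among the 11, and they and the lists were chosen with earlier results of these data known. This count and this median are therefore not independent of that choice. The other 133 listed genes were not analysed here. Any that changed less than about 2-fold would not be listed, so the count says nothing of them. Among them are the helicase subunits MCM2 to MCM7, the cyclins CCND1 and CCNE1, the inhibitor CDKN1A, the factors E2F1 to E2F8 and DNMT1.

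In origin licensing, 1 of 15 genes was in the table. CDC6, which loads the helicase onto origins together with ORC and CDT1, had 1578, 1680 and 1537 normalized counts in WT and 3812, 3040 and 3036 in CYGB-OE (log2 fold change 1.04, SE 0.12; edgeR adjusted p = 5.69e-05). Among 15 genes of helicase activation and the fork, CLSPN and TIPIN rose beside MCM10. CLSPN encodes claspin, an adaptor of the replication checkpoint, and had 839, 914 and 977 normalized counts in WT and 2787, 1851 and 2040 in CYGB-OE (log2 fold change 1.29). TIPIN, which protects the fork together with TIMELESS, had 408 to 431 in WT and 891 to 959 in CYGB-OE (log2 fold change 1.12). None of the 12 genes of the S-phase checkpoint list, such as CHEK1 and ATR, was in the table.

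Of 29 genes of clamps, polymerases and Okazaki fragments, POLE4, a small subunit of DNA polymerase epsilon, was the only one in the table beside PCNA. It rose from 354 ± 18.7 to 725 ± 52.3 normalized counts (SD, n = 3 each), a log2 fold change of 1.03. RRM2, the small subunit of ribonucleotide reductase and 1 of 22 genes of deoxynucleotide supply, had 2577, 2832 and 2759 normalized counts in WT and 6564, 5224 and 5256 in CYGB-OE (log2 fold change 1.06). CCNE2, which encodes cyclin E2, the partner of CDK2 at the G1/S boundary, had the largest rise of the 11, with 310, 343 and 305 in WT and 1180, 726 and 729 in CYGB-OE (log2 fold change 1.46, SE 0.20; edgeR adjusted p = 0.000154). Without CYGB-OE replicate 1 its log2 fold change was 1.18, below that of UHRF1 at 1.32. ASF1A, a histone chaperone of replication-coupled chromatin assembly, rose from 709 ± 34.7 to 1469 ± 89.1, a log2 fold change of 1.05.

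The 3 listed genes CDKN2A, MYCN and DNMT3A fell. CDKN2A, which encodes an inhibitor of CDK4 and CDK6 and, from another reading frame, ARF, had 429, 350 and 335 normalized counts in WT and 103, 77.0 and 83.6 in CYGB-OE. Its log2 fold change was -2.07, with an SE of 0.18 (edgeR adjusted p = 1.67e-05). CDKN2A overlaps the antisense gene CDKN2B-AS1 in the annotation, so its count is uncertain with the strand setting unknown. MYCN, a MYC family transcription factor, had 92, 119 and 100 counts in WT and 3, 9 and 16 in CYGB-OE, a log2 fold change of -3.39, and it overlaps the antisense gene MYCNOS. DNMT3A, which sets new DNA methylation, fell from 855 ± 56.9 to 361 ± 48.5 normalized counts (SD, n = 3 each), a log2 fold change of -1.24. UHRF1 and DNMT3A, both on the list of DNA methylation and chromatin genes, thus moved in opposite directions. With TMM scaling over the whole table the log2 fold change of DNMT3A was -0.05 and the call was lost (edgeR adjusted p = 0.825).

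**Figure D4:**
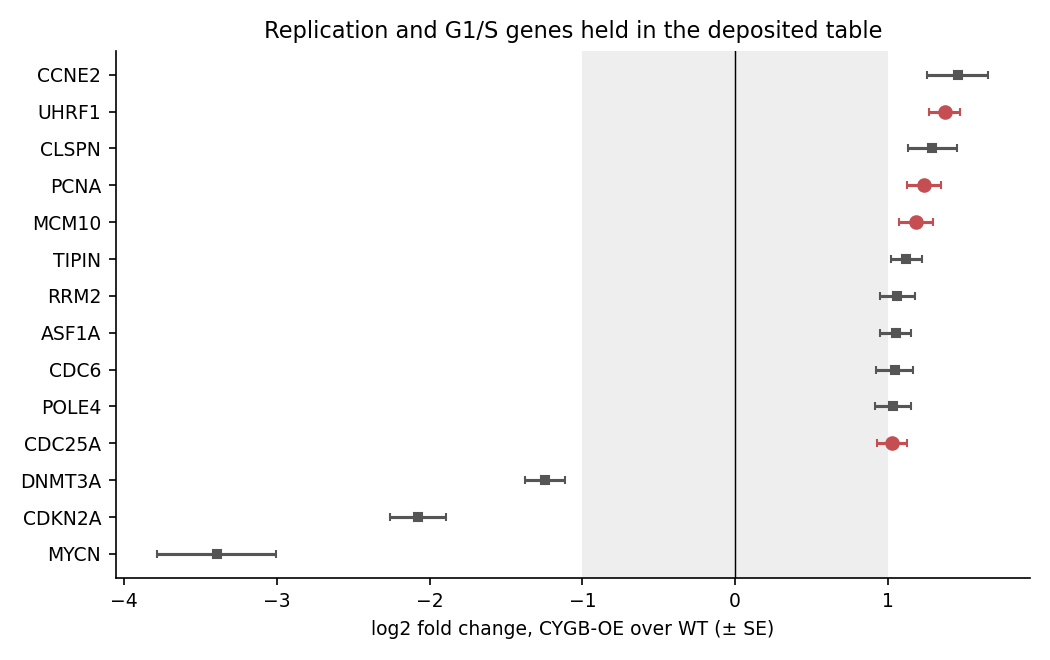
Log2 fold change (x axis, CYGB-OE over WT, bars are SE) of the 14 listed replication and G1/S genes in the deposited table, with circles for UHRF1, PCNA, MCM10 and CDC25A and squares for the other 10. The grey band from -0.995 to 0.995 holds no group ratio of the table; 11 genes lie to its right, between 1.03 and 1.46, and CDKN2A, MYCN and DNMT3A to its left.

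CYGB-OE replicate 1 was the highest CYGB-OE library in 10 of the 11 higher genes, all but ASF1A. Its normalized count was 0.91 to 1.62 times the mean of the other 2, with the top of that range in CCNE2. Without it 11 genes were still higher and 3 lower. None of 35 genes of G2/M and mitosis was in the table, and these were not analysed here. Transcripts of replication-dependent histones are made in S phase and mostly lack a poly(A) tail. Histone genes were taken by symbol (HIST1H to HIST4H), with no check that each is replication-dependent. Their link to S phase was not tested. Of 71 such genes, the table held 7, of which 6 were tested. Each of the 6 rose, where 28.3% of all features tested did, with a median log2 fold change of 1.43. HIST1H2BC, HIST1H3G and HIST2H2AC had only 0 to 18 counts in WT and 12 to 32 in CYGB-OE. They passed the filter on low counts only through CYGB-OE, so their rise is not independent of that filter. Adjusted over all annotated genes, HIST1H2BC, HIST1H2BJ, HIST1H3G and HIST2H2AC lost their calls (edgeR adjusted p = 0.0569, 0.0798, 0.166 and 0.199). HIST1H2BK and HIST1H2AC, the most abundant per kilobase of exon, were lowest in CYGB-OE replicate 1, the reverse of PCNA and CCNE2. HIST1H2BK had 258, 262 and 232 normalized counts in WT and 394, 664 and 672 in CYGB-OE, and HIST1H2AC had 97.8 to 124 and 186 to 275. These genes have near-identical copies, so their counts are uncertain.

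The genes whose pattern over the 6 libraries was most like that of each of the 4 were found among 1658 other protein-coding features by the root mean square distance of centred log2 normalized counts. The 4 genes themselves were left out of the nearest genes given here. For MCM10 the nearest were the tubulins TUBA1B (0.03) and TUBB4B (0.04), which have near-identical family members, and ZNF326 (0.04). For PCNA they were HNRNPM (0.04), a splicing factor, HSPA14 (0.05), a heat shock protein of the ribosome-bound chaperones, and BCLAF1 (0.05). MCM10 lay at 0.049 from PCNA, nearer than BCLAF1 at 0.054. For CDC25A they were RANBP1 (0.02), a cofactor of the Ran GTPase, SLF2 (0.02) and FASTKD2 (0.02), and for UHRF1 the transferrin receptor TFRC (0.06), the chaperone HSPH1 (0.06) and the elongation factor ELL2 (0.08). The distance from UHRF1 was 0.12 to PCNA, 0.12 to MCM10 and 0.18 to CDC25A. TFRC had 4437, 5053 and 4719 normalized counts in WT and 14281, 12116 and 12646 in CYGB-OE, and RANBP1 3456, 3775 and 3522 against 7826, 7093 and 7243. Since nearly all features of the table differ between the groups, this likeness is mostly a likeness of fold change, and it is a description of 6 libraries.

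Within 100 kb of the 4 genes, 2 other features of the table were annotated. OPTN, which encodes the autophagy receptor optineurin, lies 23246 bases from MCM10 on the same strand and had a log2 fold change of -2.03, opposite to MCM10. CAMP, the cathelicidin gene, lies 34945 bases from CDC25A and had too few counts to be tested.

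For the 4 genes the size of the folds, not their order or direction, depended on the scaling between the groups. The other scalings raised log2 fold changes, so they could not reverse a higher gene. TMM over the whole table, which assumes that most features are unchanged, raised all log2 fold changes by a median of 1.2 and gave 2.57 for UHRF1, 2.44 for PCNA, 2.38 for MCM10 and 2.23 for CDC25A. It called 745 features higher and 465 lower, in place of 697 and 1762. In a stricter adjustment over all 58780 annotated genes, which treats those outside the table as uncalled, 19.1% of the features tested were higher and 54.8% lower. The 4 genes were among the higher ones, with edgeR adjusted p = 0.000182 for UHRF1, 0.000408 for PCNA, 0.00051 for MCM10 and 0.000485 for CDC25A.

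**Figure D5:**
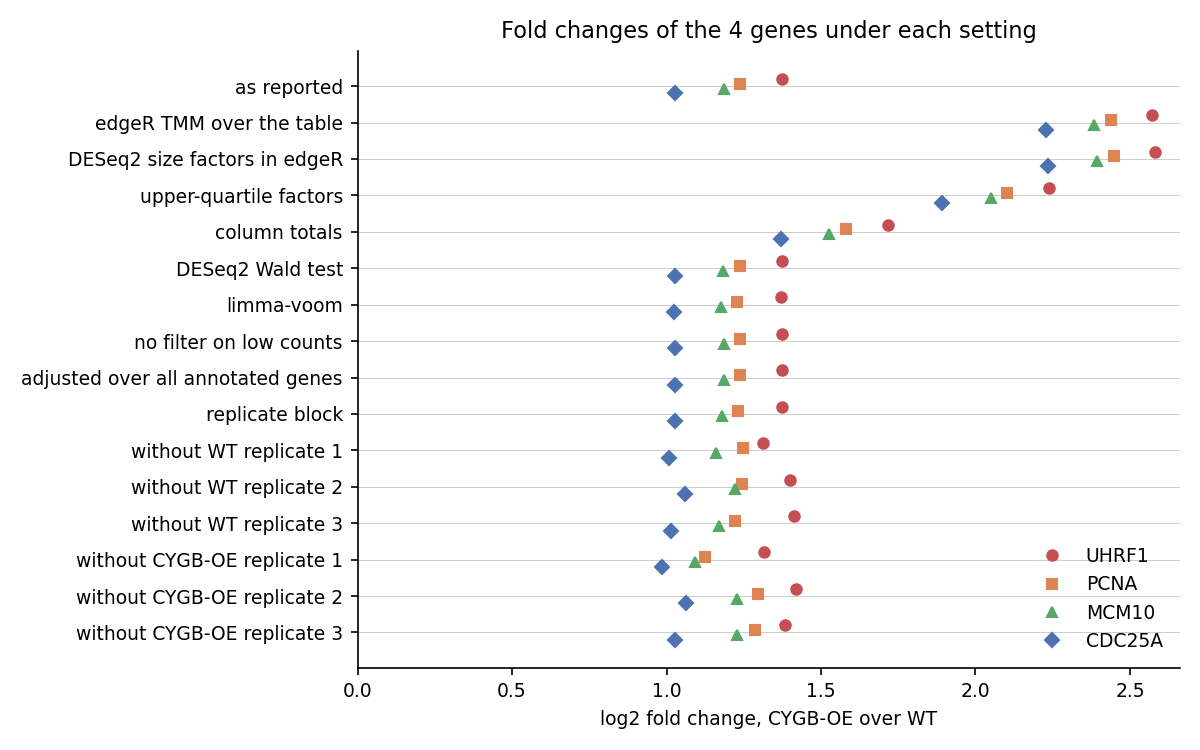
Log2 fold change (x axis, from 0) of UHRF1, PCNA, MCM10 and CDC25A under the reported settings and 15 alternatives (rows). All values lie above 0, from 0.99 for CDC25A without CYGB-OE replicate 1 to 2.58 for UHRF1 with DESeq2 size factors, and scaling moves the 4 genes together.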

How the data were processed

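The deposited table holds raw counts per feature for 6 libraries, per the file headers. The submitters' processing notes name STAR 2.5.2b, Trimmomatic 0.36, Subread 1.5.2 and featureCounts, and build GRCh38. Which annotation, strand setting and selection rule were used was not given in the sources used here. Of 2778 features, 2611 were found in GENCODE 29, whose coordinates and exon lengths were used.

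Counts were tested with edgeR 4.0.16 in R 4.3.3 (quasi-likelihood F test, two-sided, filterByExpr with minimum count 10, Benjamini-Hochberg over 2465 features tested, threshold 0.05). TMM factors came from each group alone, and the groups were levelled on the middle of the empty band of log2 ratios. Dividing by these factors gave normalized counts. Standard errors derive from the F statistic. Alternatives were other scalings, DESeq2 1.42.0, limma 3.58.1 (voom), no filter, a replicate block and leaving out each library. The fit was tested on simulated data in which most features were unchanged between the groups, unlike in this table. The levelling was tested on separate simulated data. Same-numbered WT and CYGB-OE libraries were not paired by any label.

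The 4 genes and all lists were chosen with earlier results of these data known. Named genes are the 4 genes, CYGB, listed genes in the table, the 3 protein-coding features nearest each of the 4 (the 4 left out), and table features within 100 kb. Promoter windows are from RefSeq.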

Additional observations from a re-analysis of the deposited data

How the results depend on the processing

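UHRF1, PCNA, MCM10 and CDC25A kept their direction and their calls under all 15 alternatives. Their log2 fold changes were 1.31 to 2.58, 1.12 to 2.45, 1.09 to 2.39 and 0.99 to 2.23. The alternative scalings raised log2 fold changes by medians of 0.344 to 1.2, so they could not reverse a higher gene. With the scaling used here, each listed feature also differs about 2-fold or more between these same libraries, so the kept calls are not independent evidence. The number of features called lower, 1762 as reported, was 465 with TMM over the table, 462 with DESeq2 size factors and 887 with upper-quartile factors, because these scalings raised all log2 fold changes by a median of 1.2, 1.2 and 0.86. With either of the first 2 DNMT3A lost its call, leaving 2 of the 3 lower listed genes, and the 11 higher ones were still called. Adjusted over all annotated genes, HIST1H2BC, HIST1H2BJ, HIST1H3G and HIST2H2AC lost their calls. No ratio between 2 of the 4 genes changed direction when a library was left out or 0.5 was added to each count, but the log2 differences of PCNA to MCM10 (0.020 to 0.083) and UHRF1 to PCNA (0.069 to 0.20) moved by over 1.5 times. With the replicate number as a block the log2 fold changes were 1.37, 1.23, 1.18 and 1.03 for UHRF1, PCNA, MCM10 and CDC25A, 696 features were called higher and 1763 lower, and 11 and 3 of the listed genes. Deviations of same-numbered libraries correlated at -0.01, -0.07 and 0.01, and those of differently numbered libraries at -0.036 to 0.047. No shared effect of the number was seen, which cannot show whether the libraries were prepared in pairs. Leaving out 1 library gave 694 to 744 higher and 1777 to 1846 lower features. Library depth is unknown because the table is a selection.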
